A study of Mus musculus with 15 samples.

Results

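Cells that kept leukaemia inhibitory factor (LIF) under 300 mM sorbitol were set here against cells that had lost LIF, in mouse embryonic stem cells profiled by RNA sequencing. The comparison took 6 of the 15 libraries of the study, chosen by their labels: 3 of 300 mM sorbitol with LIF and 3 without LIF, over all 21516 genes listed. The cells carried a Rex1-RFP reporter, a red fluorescent protein under the promoter of Zfp42 (Rex1), which undifferentiated stem cells express. Every group was precultured with LIF for 18 h, until roughly 24% confluent, and then kept in its condition for 72 h. The sorbitol cells received sorbitol at 300 mM with LIF, and the cells they were set against received no LIF and no sorbitol, a condition labelled normal differentiation (ND). Cells given LIF alone (labelled normal stemness, NS) and cells given LIF with sorbitol at 200 or 250 mM, again 3 libraries each, place the differences. The conditions compared therefore differ in sorbitol and in LIF at once, and a difference between them cannot by itself be assigned to either one. The study used this 1 reporter line, and the labels call the 3 libraries of a group biological triplicates.

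LIF binds a receptor made of LIFR and gp130 (Il6st) and activates the transcription factor STAT3, which drives Klf4, Socs3, Bcl3 and other genes that hold mouse embryonic stem cells in the naive state. When LIF is withdrawn, this drive stops and cells begin to leave that state, first losing Klf4 and Tbx3 and later the core factors Pou5f1, Sox2 and Nanog. Sorbitol is a sugar alcohol that stays largely outside cells, raises the osmolarity of the medium and draws water from the cells. Hyperosmotic cells take up or make organic osmolytes with transporters and enzymes under the transcription factor NFAT5, and induce heat shock proteins.

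Each library held between 968556 and 2197986 counts in the 6 libraries compared, and replicate 1 was the deepest of its group, with 1909528 counts at 300 mM and 2197986 without LIF. Values are CPM, counts relative to the library total after scaling by edgeR's TMM factors, in which 3 counts came to between 1.42 and 3.58 CPM. Fold changes are log2 changes of 300 mM sorbitol over no LIF with their standard error (SE), and a gene is said to have risen or fallen where its Benjamini-Hochberg adjusted p over the 9390 genes tested was under 0.05. One library stood apart: in no-LIF library 2 the median ribosomal protein gene lay 0.83 above the mean of all 15 libraries on the log2 scale, against 0.13 or less in the other 5 libraries compared. Markers of undifferentiated stem cells were present in every library: the summed level of Pou5f1, Nanog, Sox2, Zfp42 and Esrrb was 905, 1214 and 1390 CPM in the 3 libraries at 300 mM and 991, 519 and 1172 CPM in the 3 without LIF. Of the fibroblast markers, Col3a1 and Postn had no count in any of the 6 libraries, and the 6 listed markers together reached 7.07 CPM at most at 300 mM and 9.94 CPM at most without LIF. Genes were named by a fixed rule; others, given to complete a list's count or to show textbook members, are said to be outside it or were too low to be tested, and were picked with their values in view.

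The genes higher under 300 mM sorbitol than without LIF included 4 of 11 tested LIF and STAT3 targets, 6 of 16 trophoblast genes and 6 of 17 basement membrane genes. They also included 14 of 25 H/ACA small nucleolar RNAs, a class set up after values were seen, whose count describes and does not test. The genes that were lower included 7 of 19 oxygen-regulated, 8 of 23 glycolytic and 9 of 23 sterol synthesis genes and both metallothioneins. In all, 423 of the 9390 tested genes rose (4.5%) and 484 fell (5.15%), which made 907 genes (9.66%) past the threshold in either direction. These shares are the background for every list count at 300 mM against no LIF, here and below. The median log2 change over all tested genes was -0.02. In bulk libraries, fewer cells that express a gene and less of its RNA per cell cannot be told apart, which holds for every difference given here. Which direction held more genes depended on the scaling, since scaling by library totals gave 500 higher and 410 lower. Leaving out 1 library lowered the count of 907 to 517, 461 and 561 without 300 mM libraries 1, 2 and 3, to 580 and 569 without no-LIF libraries 1 and 2, and to 839 without no-LIF library 3. The libraries of the groups did not overlap for 1370 genes that were higher at 300 mM (14.6% of those tested) and 1419 that were lower (15.1%).

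**Figure D1:**
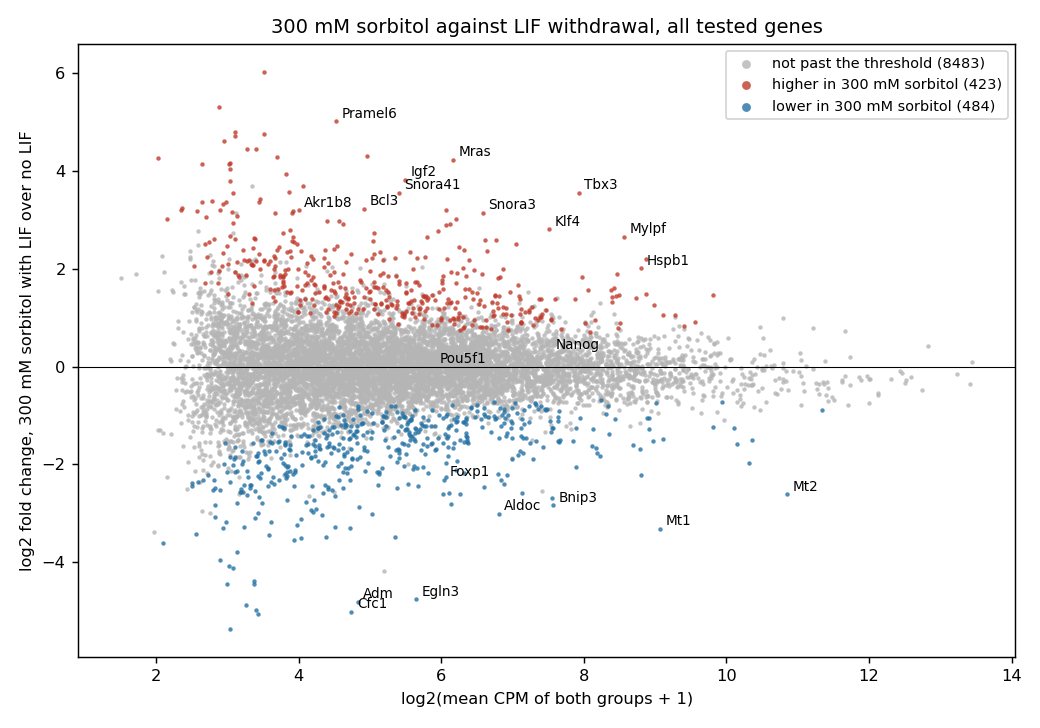
Each point is 1 of the 9390 tested genes. The x axis gives the log2 of the mean CPM of both groups plus 1, and the y axis the log2 change of 300 mM sorbitol with LIF over no LIF. The 423 red genes rose and the 484 blue genes fell; Klf4, Tbx3 and Igf2 lie high among abundant genes, Mt1, Mt2 and Egln3 lie low, and Pou5f1 and Nanog lie near 0, where the direction of Nanog turns without 300 mM library 3 or no-LIF library 2.

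The cells with LIF alone place each difference. For 774 of the 907 genes (85.3%), the mean log2 level with LIF alone lay nearer to that without LIF than to that at 300 mM sorbitol, against 64.7% of all tested genes. This was so for 339 of the 423 genes that rose and for 435 of the 484 that fell. For 692 of the 907 the LIF control lay between the others, as it did for 3842 of all 9390 tested genes. The 907 were selected for a gap between the other groups, within which a further group falls more readily. The LIF control's own comparisons gave 303 genes higher (3.23%) and 438 lower (4.66%) at 300 mM than with LIF alone (7.89% in either direction). That count of 741 was 408, 210 and 266 without 300 mM libraries 1, 2 and 3, and 291, 250 and 1500 without LIF control libraries 1, 2 and 3. Between no LIF and LIF alone there were 0 genes higher and 3 lower (0.0319%) without LIF. This comparison had 600 genes at an unadjusted p under 0.05, and DESeq2 called 26 genes in it. It gave 0 genes without no-LIF library 1 or 2 or LIF control library 1 or 2, 2 without no-LIF library 3 and 74 without LIF control library 3. The comparisons share libraries, so their values are given gene by gene and are not set against each other as independent evidence.

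Several LIF and STAT3 targets were higher at 300 mM sorbitol. Of the 11 tested members, Bcl3, Klf4, Stat3 and Klf5 rose and none fell, against 4.5% of all tested genes that rose, 9 had positive changes, and the median log2 change was 0.84, beside -0.02 over all tested genes. The STAT site TTCNNNGAA, searched on both strands from 250 bases before to 50 after the gene's start (RefSeq, GRCm38.p6), was in none of the 3 listed promoters of risen members, in 1 of 10 of tested members and in 8.47% of all 27025 promoters. Klf4, a transcription factor of the naive network and a direct STAT3 target, stood at 382, 273 and 298 CPM in the 3 libraries at 300 mM and at 63, 34.6 and 36.6 CPM in the 3 without LIF. The groups did not overlap, and the lowest 300 mM library was over 4 times the highest library without LIF. Its log2 change was 2.8 ± 0.41 (adjusted p = 0.000633). Bcl3, an IκB family protein gene that STAT3 induces, had 56, 53.1 and 50.7 CPM at 300 mM, against 5.21, 2.39 and 8.75 CPM without LIF (3.22 ± 0.37, adjusted p = 0.000111). All 300 mM libraries lay close together and all libraries without LIF were low. Stat3 itself averaged 157 ± 10.2 CPM at 300 mM and 57.4 ± 21.4 CPM without LIF (SD, n = 3 each; 1.46 ± 0.27, adjusted p = 0.00318), and Klf5 averaged 489 ± 43.5 and 181 ± 50.4 CPM (1.43 ± 0.25, adjusted p = 0.00242).

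For Klf4 and Bcl3 the LIF control lay far above the libraries without LIF. Klf4 averaged 318 ± 57.4 CPM at 300 mM, 44.7 ± 15.8 CPM without LIF and 258 ± 132 CPM with LIF alone, and its log2 change without LIF against LIF alone was -2.5 ± 0.41 (adjusted p = 0.0473). Bcl3 averaged 53.3 ± 2.69, 5.45 ± 3.19 and 36.9 ± 12.5 CPM in the same order, with a change of -2.69 ± 0.37 without LIF against LIF alone (adjusted p = 0.015). Klf4, Bcl3 and Tdgf1 were the 3 genes that fell without LIF against LIF alone. Between 300 mM and LIF alone, the changes of Klf4 (0.30 ± 0.37, adjusted p = 0.676), Bcl3 (0.53 ± 0.31, adjusted p = 0.306) and Stat3 (0.46 ± 0.26, adjusted p = 0.299) did not pass. Socs3, the feedback inhibitor of LIF signalling, varied within groups, with 6.53, 15.2 and 41.4 CPM at 300 mM and 0.947, 9.55 and 5.57 CPM without LIF. Its groups overlapped and its change of 2.14 ± 1.12 did not pass (adjusted p = 0.251). Without a filter on low counts Socs3 passed (adjusted p = 0.00643), and its change was 1.19 without 300 mM library 3, 1.46 without no-LIF library 1 and 2.78 without no-LIF library 2. The receptor genes Lifr (0.17 ± 0.27) and Il6st (-0.48 ± 0.38) did not pass either (adjusted p = 0.761 and 0.468).

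**Figure D2:**
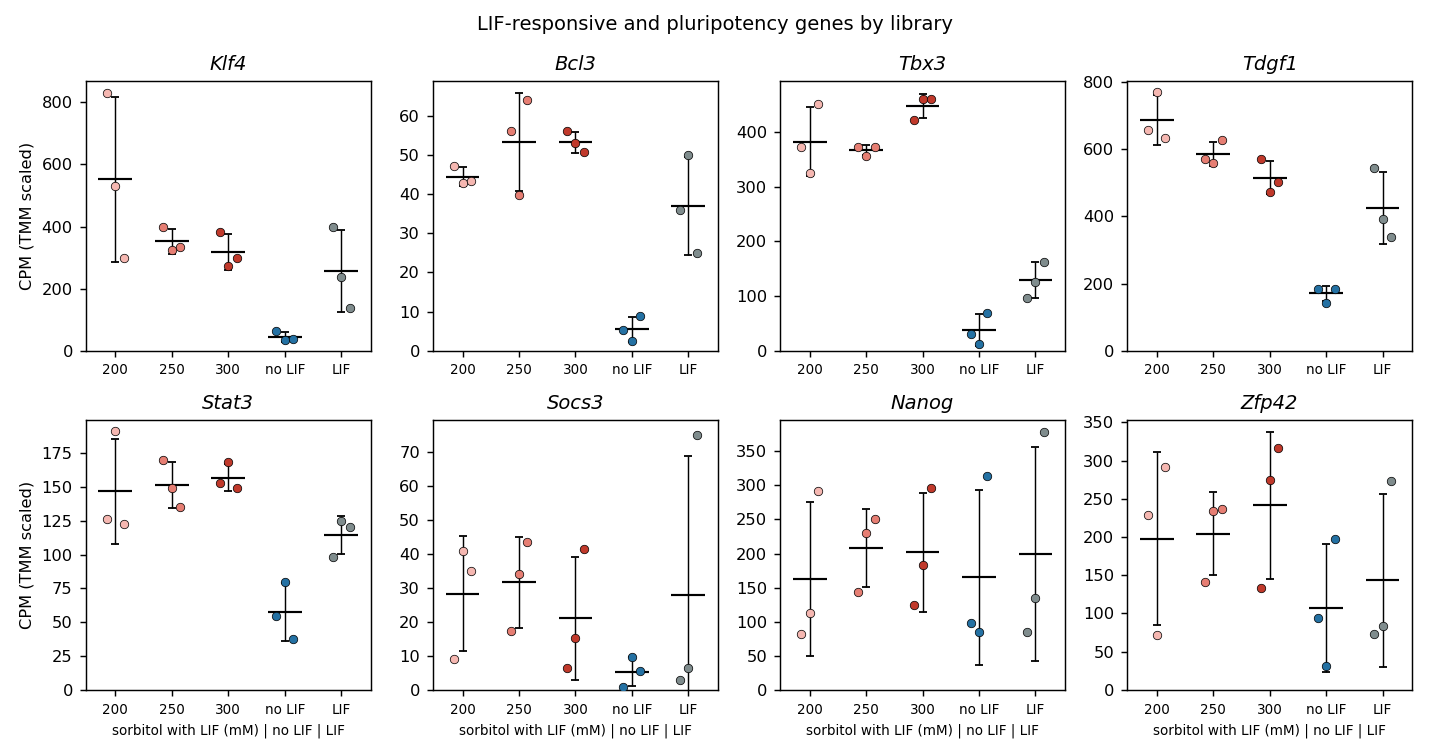
CPM of 8 genes of LIF signalling and pluripotency in each library (points) with the mean and SD of 3 libraries (lines; SD bars that reach below 0 are clipped there), for sorbitol at 200, 250 and 300 mM with LIF, for no LIF and for LIF alone. Klf4, Bcl3, Tbx3, Tdgf1 and Stat3 are low without LIF in all 3 libraries, whereas Socs3, Nanog and Zfp42 overlap between 300 mM and no LIF.

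Among 19 tested genes of the naive network, 5 rose (Tbx3, Klf4, Mylpf, Klf5 and Tcfcp2l1) and 1 fell (Dppa3), with a median log2 change of 0.71. Tbx3, a transcription factor that supports self-renewal, had 421, 461 and 459.6 CPM at 300 mM and 31.2, 11.9 and 69.2 CPM without LIF (3.55 ± 0.40, adjusted p = 9.92e-05). All 3 libraries at 300 mM exceeded every library without LIF by more than 6-fold. The change was 4.28 without no-LIF library 3. Tbx3 was also above the LIF control, which averaged 128 ± 33 CPM (1.8 ± 0.37 at 300 mM against LIF alone, adjusted p = 0.00896). Mylpf, a myosin light chain gene listed here because undifferentiated mouse stem cells express it, had 756, 678 and 519 CPM at 300 mM, 82.4, 152 and 79.6 CPM without LIF and 123, 135 and 126 CPM with LIF alone (2.65 ± 0.27 against no LIF, adjusted p = 3.36e-05). Here the libraries without LIF and those with LIF alone lay in 1 range and the 300 mM libraries above it. Tcfcp2l1, another naive factor, chosen after its values were seen, changed by 0.90 ± 0.24 (adjusted p = 0.0278), with an adjusted p of 0.118 and 0.0943 without 300 mM libraries 2 and 3 and 0.106 and 0.0788 without no-LIF libraries 2 and 3.

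Dppa3 (Stella), a maternal factor that protects DNA methylation, went the other way, with 33.7, 44.7 and 35 CPM at 300 mM, against 120.2, 261 and 189 CPM without LIF (-2.32 ± 0.48, adjusted p = 0.0062). The groups did not overlap, while the LIF control, with 54.9, 69.98 and 197 CPM, ranged between them and into the levels without LIF. The reporter's own gene Zfp42 had 133, 275 and 316 CPM at 300 mM and 94.2, 31 and 197 CPM without LIF, which overlapped (1.15 ± 0.61, adjusted p = 0.257). Its change was 1.9 without no-LIF library 3, and without a filter on low counts it passed (adjusted p = 0.0171). Nanog (0.28 ± 0.58, adjusted p = 0.817) and Sox2 (-0.22 ± 0.30, adjusted p = 0.71) did not pass. The change of Nanog was 1.14 without no-LIF library 3, -0.10 without 300 mM library 3 and -0.04 without no-LIF library 2, and that of Sox2 was 0.10 without no-LIF library 1, so their directions depended on the libraries. Pou5f1, whose near-identical pseudogenes could share its reads, averaged 58.5 ± 20.3 CPM at 300 mM and 59.3 ± 14.4 CPM without LIF (adjusted p = 0.997). Esrrb, a nuclear receptor of the naive network, averaged 338 ± 108 and 179 ± 39.1 CPM, with no overlap and a change of 0.91 ± 0.31 that missed the threshold (adjusted p = 0.0729).

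Of 14 tested genes of general pluripotency, Tdgf1, Dppa2 and Trim28 rose and none fell. Tdgf1 encodes Cripto, the co-receptor for Nodal, and stood at 572, 474 and 502 CPM at 300 mM and 184, 143 and 184 CPM without LIF (1.6 ± 0.22, adjusted p = 0.000411). The groups were far apart, and the LIF control, at 546, 393 and 339.9 CPM, lay above all libraries without LIF. Trim28, a co-repressor of retroelements, averaged 835 ± 31.9 CPM at 300 mM and 405 ± 22.1 CPM without LIF (1.04 ± 0.21, adjusted p = 0.00509). Dppa2 changed by 1.43 ± 0.34 (adjusted p = 0.0141, and 0.0561 without 300 mM library 2 and 0.0549 without no-LIF library 2). In the list of 15 tested formative and primed genes 2 rose and 1 fell, and 11 changes were negative. Foxp1, a forkhead factor whose splicing differs between pluripotent and differentiating cells, fell to 20.7, 20.2 and 24.9 CPM at 300 mM, against 133, 85.9 and 105 CPM without LIF (-2.31 ± 0.28, adjusted p = 0.000145). No 300 mM library came near those without LIF, and the LIF control was high as well, at 98.9, 87.2 and 71.4 CPM. Dnmt3b, a de novo DNA methyltransferase gene, averaged 337 ± 8.04 CPM at 300 mM and 206 ± 31.8 CPM without LIF (0.71 ± 0.21, adjusted p = 0.0407), but its adjusted p was 0.099, 0.118 and 0.0872 without 300 mM libraries 1, 2 and 3 and 0.14 and 0.11 without no-LIF libraries 2 and 3. Fgf5, the classical marker of the formative epiblast, had 0 counts at 300 mM and 9 without LIF, too few to be tested.

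Part of the trophoblast list was higher at 300 mM sorbitol. Of 16 tested members, Hand1, Gata2, Plac1, Zfp36l3, Krt8 and Krt19 rose and Rhox9 fell, beside 4.5% and 5.15% of all tested genes, and the median log2 change was 1.21. Hand1, a helix-loop-helix factor needed for giant cells of the trophoblast, had 31.6, 23.6 and 19.3 CPM at 300 mM and 1.89, 7.16 and 0.796 CPM without LIF (3.14 ± 0.56, adjusted p = 0.00269, and a change of 4.0 without no-LIF library 2). Gata2, a GATA factor of the placenta and of blood cells, had 14.1, 21.9 and 27.6 CPM at 300 mM and 3.31, 2.39 and 0.796 CPM without LIF (3.14 ± 0.54, adjusted p = 0.00204, and a change of 3.76 without no-LIF library 1). Neither gene overlapped between the groups, and all values without LIF were at or below 7.16 CPM. Plac1, an X-linked placental gene chosen after its values were seen, had 16.9, 14.3 and 11.1 CPM at 300 mM, 2.37, 1.19 and 0.796 CPM without LIF and at most 0.909 CPM with LIF alone (3.07 ± 0.57 against no LIF, adjusted p = 0.00338). Zfp36l3, an RNA-binding protein gene of rodent placenta, averaged 23.9 ± 11.7 CPM at 300 mM and 3.55 ± 2.45 CPM without LIF (2.79 ± 0.52, adjusted p = 0.00318, and a change of 3.52 without no-LIF library 3). The keratin gene Krt8 had 87, 99.4 and 80.1 CPM at 300 mM and 9.94, 7.16 and 39 CPM without LIF, where library 3 was the high one (2.24 ± 0.56, adjusted p = 0.0184, and 0.06 without 300 mM library 2 and 0.0807 and 0.0729 without no-LIF libraries 1 and 2). Krt19, another keratin gene, and the homeobox gene Rhox9, outside the naming rule, changed by 1.33 ± 0.36 and -1.27 ± 0.30, with an adjusted p of 0.142 without 300 mM library 1 and 0.125 and 0.0651 without no-LIF libraries 1 and 3 for Krt19 and 0.0632 without 300 mM library 3 for Rhox9. Krt18, the partner of Krt8, averaged 148 ± 74.2 and 59.8 ± 15.7 CPM and did not pass (1.3 ± 0.49, adjusted p = 0.105).

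Markers that define trophoblast are given beside this list. The 8 listed markers in the files summed to 413, 272 and 275 CPM at 300 mM and to 104, 85.9 and 144 CPM without LIF, with 36.4 to 62.5 CPM with LIF alone, and 3 of the 6 tested ones rose. On average, the keratin genes Krt8 and Krt18, given above, made up most of the sums at 300 mM and without LIF. Cdx2, which specifies this lineage, had 8 counts over the 3 libraries at 300 mM and 0 without LIF. That is at least 2.73-fold higher when set against a floor of 3 counts over the group, and it was too low to be tested. Its paralog Cdx1 had 17 counts and 0 (at least 5.8-fold higher, against the same floor). Other markers of this lineage stayed low, with 2 counts in each group for Elf5, and 11.6 ± 5.91 and 9.55 ± 3.4 CPM at 300 mM and without LIF for Gata3. With replicates 2 and 3 alone, 2 of the trophoblast genes rose and none fell. Whether a share of cells entered another lineage was not tested.

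Of 6 tested genes of the primitive endoderm list, Gata6 and Sparc rose and Apoe fell. The 8 defining markers summed to 50.05, 47.2 and 45.1 CPM at 300 mM, against 28.9, 21.5 and 13.5 CPM without LIF, and 1 of the 3 tested markers rose (Gata6). Apoe, a lipid carrier that primitive endoderm makes, changed by -0.75 ± 0.22 (adjusted p = 0.0363, and 0.162, 0.0718 and 0.062 without 300 mM libraries 1, 2 and 3 and 0.0766, 0.0829 and 0.0674 without no-LIF libraries 1, 2 and 3). Gata6, which drives that lineage and was chosen after its values were seen, had 16.3, 17.7 and 23 CPM at 300 mM and 3.79, 7.16 and 1.59 CPM without LIF (2.25 ± 0.59, adjusted p = 0.0234, and 0.0565 and 0.0691 without 300 mM libraries 2 and 3 and 0.082 and 0.0775 without no-LIF libraries 1 and 3). The groups did not overlap, although the counts were low. Sox17 (19 and 10 counts) and Gata4 (7 and 5 counts) were too low to be tested. Summed mesoderm markers were 33.7, 28.6 and 27.6 CPM at 300 mM, against 15.1, 15.5 and 24.7 CPM without LIF, while T (Brachyury) had 0 and 4 counts. Eomes, the 1 tested marker of these 5, made up most of the sums and did not pass. A longer list of primitive streak and mesoderm genes had 3 tested members, all with positive changes. Of these only Hand1, given above with the trophoblast genes, rose. Summed neural markers overlapped, at 107, 113 and 118 CPM at 300 mM and 93.2, 71.6 and 131 CPM without LIF. Sox11, a neural SOX factor, fell to 9.79, 13.5 and 13.8 CPM at 300 mM, against 68.6, 44.2 and 53.3 CPM without LIF (-2.19 ± 0.36, adjusted p = 0.00173), and was the 1 called member of 3 tested neural genes.

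Genes of the basement membrane, the laminin and collagen IV sheet that epithelia and primitive endoderm lay down, were called in 6 of 17 cases, all higher, beside 4.5% of all tested genes. The other 11 did not pass, 5 changes were negative and the median log2 change was 0.51. Tested against a log2 change of 1, 1 member passed. Col4a1 had 86, 62.3 and 84.7 CPM at 300 mM and 20.8, 9.55 and 13.5 CPM without LIF (2.34 ± 0.34, adjusted p = 0.000545), and its partner chain Col4a2 had 32.1, 18.5 and 29.5 CPM, against 8.05, 4.77 and 4.77 CPM (2.11 ± 0.48, adjusted p = 0.0108). Both genes are transcribed from a shared promoter region in opposite directions. In both, all 300 mM libraries exceeded all libraries without LIF and with LIF alone. Lama1, the laminin α1 chain, averaged 25.9 ± 11.6 CPM at 300 mM and 2.27 ± 2.67 CPM without LIF (3.17 ± 0.67, adjusted p = 0.00712, and a change of 4.68 without no-LIF library 1). Sparc, a collagen-binding secreted protein, averaged 1310 ± 308 CPM at 300 mM and 477 ± 95.6 CPM without LIF (1.46 ± 0.34, adjusted p = 0.0125), with an adjusted p of 0.0565 without 300 mM library 1 and 0.0598 without no-LIF library 2. Lamc1 and Nid1, outside the naming rule, were the other members past the threshold, with an adjusted p of 0.0526 and 0.105 without 300 mM libraries 2 and 3 and 0.101 and 0.0551 without no-LIF libraries 1 and 3 for Lamc1 and 0.0833 without 300 mM library 2 and 0.0583 without no-LIF library 3 for Nid1.

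Of 14 tested epithelial junction genes 4 fell and none rose, beside 5.15% of all tested genes that fell. Their median was -0.28, 5 changes were positive, and 1 fell with replicates 2 and 3 alone. Epcam, an adhesion molecule of epithelia and stem cells, had 162, 172 and 149 CPM at 300 mM and 365, 316 and 313 CPM without LIF (-1.04 ± 0.20, adjusted p = 0.0035). The claudins of tight junctions Cldn6 (4.96 ± 1.4 and 23.3 ± 4.01 CPM; -2.19 ± 0.48, adjusted p = 0.00838) and Cldn7 (28.8 ± 5.87 and 86.1 ± 24 CPM; -1.56 ± 0.29, adjusted p = 0.00328) fell too. The desmosomal gene Dsp overlapped between the groups, and its change of -1.58 ± 0.46 (adjusted p = 0.0384) had an adjusted p of 0.132 and 0.145 without 300 mM libraries 2 and 3 and 0.0736 and 0.175 without no-LIF libraries 1 and 3.

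The genes with the largest rise included growth factors, a small GTPase and detoxifying enzymes. Igf2, the imprinted fetal growth factor, had 85.4, 92.7 and 70.00 CPM at 300 mM, 7.1, 5.97 and 3.98 CPM without LIF and 1.91, 3.64 and 2.68 CPM with LIF alone. Every 300 mM library was at least 9 times any library without sorbitol. Its log2 change was 3.81 ± 0.34 against no LIF (adjusted p = 1.65e-05) and 4.94 ± 0.38 against LIF alone (adjusted p = 3.2e-06). Vegfc, the growth factor of lymphatic vessels, had 85.4, 37.9 and 49.7 CPM at 300 mM and 2.37, 1.19 and 4.77 CPM without LIF (4.31 ± 0.60, adjusted p = 0.000411). Mras, a RAS family GTPase, had 172, 121 and 111 CPM at 300 mM and 7.1, 1.19 and 11.9 CPM without LIF (4.22 ± 0.55, adjusted p = 0.000301). Both were close to the floor in at least 1 library without LIF, and Mras stood between the others with LIF alone, at 47.3, 49.1 and 27.7 CPM. Pramel6, a gene that undifferentiated stem cells express, averaged 42.7 ± 2.37 CPM at 300 mM and 1.46 ± 1.61 CPM without LIF (5.01 ± 0.61, adjusted p = 0.000175; the change was 4.13 without no-LIF library 1 and 6.61 without no-LIF library 3).

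Further genes of this group were low without LIF. Vnn1, a pantetheinase, had 86 counts over the libraries at 300 mM and 3 without LIF, a ratio of 29.3 scaled to library totals (exact 95% interval 9.71 to 145, counting error only; adjusted p = 0.000378). Its fitted change was 4.74 ± 0.64, and 7.82 without no-LIF library 1. Gsta3, a glutathione transferase gene, averaged 29.1 ± 8.78 CPM at 300 mM and 2.2 ± 1.55 CPM without LIF (3.69 ± 0.53, adjusted p = 0.000529, and a change of 4.35 without no-LIF library 3). Myo1f, an unconventional myosin, averaged 23.2 ± 7.23 and 0.789 ± 1.37 CPM (4.28 ± 0.68, adjusted p = 0.00131, and a change of 8.01 without no-LIF library 1, where the other libraries of the group had no count). Spink3, a serine protease inhibitor, averaged 24.5 ± 7.01 and 1.86 ± 1.66 CPM (3.93 ± 0.68, adjusted p = 0.00204, and a change of 3.06 without no-LIF library 1 and 4.92 without no-LIF library 3). AA467197, listed under its clone name, averaged 25.4 ± 3.8 and 1.88 ± 0.859 CPM (3.56 ± 0.47, adjusted p = 0.000316). None of these genes overlapped between the groups.

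Imprinted genes, which are expressed from 1 parental copy, were called in both directions: of 15 tested, 4 rose, Igf2 among them, and 1 fell. Peg10, a retrotransposon-derived gene of the placenta, had 277, 147 and 128 CPM at 300 mM and 45, 43 and 51.7 CPM without LIF (1.99 ± 0.36, adjusted p = 0.00272). The libraries with LIF alone were the lowest, at 22.9, 20.9 and 17 CPM. Cdkn1c, an inhibitor of the cell cycle, averaged 23.5 ± 3.9 and 6.28 ± 2.64 CPM (1.99 ± 0.46, adjusted p = 0.0122, and 0.0518 without 300 mM library 2 and 0.0709 without no-LIF library 1). Meg3, a long non-coding RNA of the Dlk1 domain, averaged 42.5 ± 14.2 CPM at 300 mM and 198 ± 111 CPM without LIF (-2.22 ± 0.49, adjusted p = 0.00897, and 0.0538 without 300 mM library 2). H19, the non-coding neighbour of Igf2, had 3 counts and 1 count. Without 300 mM library 2 the list's count was 2 higher and 0 lower.

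Of the genes that cells use against hyperosmotic stress, 4 of 12 tested rose (Hspa1b, Akr1b8, Sgk1 and Slc38a4) and none fell, with a median log2 change of 0.85. Akr1b8, an aldose reductase family gene, had 32.6, 23.6 and 24.9 CPM at 300 mM, 2.84, 4.77 and 1.59 CPM without LIF and 1.91, 8.18 and 2.68 CPM with LIF alone. The 300 mM libraries were above all those without LIF and with LIF alone. Its log2 change against no LIF was 3.19 ± 0.51 (adjusted p = 0.00131). Sgk1, a kinase that regulates ion transport, averaged 77.3 ± 8.22 CPM at 300 mM and 23.9 ± 13.8 CPM without LIF (1.66 ± 0.34, adjusted p = 0.00618), with 55 ± 6.09 CPM with LIF alone. Slc38a4, an imprinted amino acid transporter gene, changed by 0.79 ± 0.20 (adjusted p = 0.0193, and 0.0643 and 0.0573 without 300 mM libraries 1 and 2 and 0.0511 and 0.07 without no-LIF libraries 2 and 3). The list's count was 2 higher without 300 mM library 2 and likewise without no-LIF library 2.

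None of the textbook osmolyte genes given next was called, although the values of most were higher at 300 mM. Slc5a3, the sodium and myo-inositol cotransporter that NFAT5 drives, had 12.5, 13.5 and 11.1 CPM at 300 mM and 11.8, 11.9 and 18.3 CPM without LIF. These values overlapped (-0.18 ± 0.35, adjusted p = 0.802, and a change of 0.06 without no-LIF library 3), and both groups lay above the LIF control at 7.17, 7.27 and 5.35 CPM. The taurine transporter Slc6a6 (0.92 ± 0.35, adjusted p = 0.114) and Nfat5 itself (1.02 ± 0.57, adjusted p = 0.292) did not pass. Slc6a12, the betaine transporter, had 21 counts at 300 mM (14, 7 and 0 by library) and 0 without LIF, at least 7.16-fold higher against a floor of 3 counts over the group and too low to be tested. Akr1b3, the aldose reductase that makes sorbitol inside cells, had 19 counts at 300 mM and 6 without LIF and was not tested either.

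Heat shock genes moved one by one: 3 of 17 tested rose (Hspa1b, Hspb1 and Hsph1), none fell, and the list's median was -0.06. Hspb1, a small heat shock protein that protects actin and unfolded proteins, had 646, 741 and 754 CPM at 300 mM, 143, 186 and 204 CPM without LIF and 135, 145 and 211 CPM with LIF alone. All 300 mM libraries were more than 3 times any library without LIF. The change was 2.01 ± 0.25 against no LIF (adjusted p = 0.000177) and 2.13 ± 0.25 against LIF alone (adjusted p = 0.000191). Hsph1, a co-chaperone of the HSP110 class, averaged 237 ± 40.1 CPM at 300 mM and 90.9 ± 18.6 CPM without LIF (1.38 ± 0.28, adjusted p = 0.00567). Hspa1b, an inducible HSP70 gene chosen after its values were seen, has a near-identical copy, Hspa1a, so its counts are uncertain. It averaged 7.51 ± 2.3 CPM at 300 mM and 0.688 ± 0.817 CPM without LIF (3.2 ± 0.80, adjusted p = 0.0183), and its adjusted p was 0.0579 and 0.0556 without 300 mM libraries 2 and 3 and 0.0907 and 0.0557 without no-LIF libraries 1 and 2.

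Promoters of the 3 heat shock genes that rose, from 250 bases before to 50 bases after the gene's start (RefSeq, GRCm38.p6), all held GAANNTTC, the palindromic core of a heat shock element. So did 7 of the 12 tested heat shock genes with a listed promoter, and 7.95% of all 27025 promoters. The Hspb1 promoter (chr5:135887669-135887968, plus strand) is shown because Hspb1 was the most abundant of the 3 and holds 2 matches, in capitals. The motif reads the same on both strands, and a match is a letter match, not evidence of binding.
Hspb1: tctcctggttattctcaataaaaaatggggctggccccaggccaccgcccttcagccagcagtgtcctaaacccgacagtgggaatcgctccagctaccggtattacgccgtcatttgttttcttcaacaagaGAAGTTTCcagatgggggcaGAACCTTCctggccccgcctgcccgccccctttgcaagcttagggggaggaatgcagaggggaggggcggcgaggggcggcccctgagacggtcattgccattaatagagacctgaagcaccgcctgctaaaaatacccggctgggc

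Several genes that oxygen regulates through the hypoxia-inducible factors (HIF) were lower at 300 mM sorbitol. Of 19 tested, Adm, Egln3, Bnip3, Ero1l, Ddit4, Egln1 and Vegfa fell and Pfkfb4 rose, and 11 did not pass, and the median log2 change was -1.15, against -0.02 over all tested genes. Egln3, a prolyl hydroxylase that marks HIF for destruction and is itself a HIF target, had 3.26, 1.68 and 5.53 CPM at 300 mM, 124, 97.9 and 62.1 CPM without LIF and 76.9, 92.7 and 49.1 CPM with LIF alone. The lowest library without LIF was over 11 times the highest 300 mM library. Its change was -4.76 ± 0.49 (adjusted p = 3.36e-05). Bnip3, a mitophagy receptor, had 56, 40.4 and 41.4 CPM at 300 mM and 295, 500.1 and 201 CPM without LIF (-2.84 ± 0.40, adjusted p = 0.000521). Adm, the secreted peptide adrenomedullin, had 1.09, 1.68 and 2.76 CPM at 300 mM and 18, 125 and 15.9 CPM without LIF (-4.81 ± 0.86, adjusted p = 0.00266). Library 2 without LIF was far above the other two for Adm, and without it the change was -3.26.

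Further oxygen-regulated genes fell too. Ero1l, an oxidase of the endoplasmic reticulum, averaged 39.4 ± 6.05 CPM at 300 mM and 239.6 ± 167 CPM without LIF (-2.59 ± 0.47, adjusted p = 0.00283, and a change of -1.88 without no-LIF library 2). Ddit4 (REDD1), an inhibitor of mTORC1, had 461, 619 and 483 CPM at 300 mM and 1539, 2778 and 1799 CPM without LIF (-1.97 ± 0.43, adjusted p = 0.00827). The LIF control stood between these, at 720.4, 1163 and 1103 CPM. Vegfa and Egln1, chosen after their values were seen, fell by smaller amounts (-1.21 ± 0.32 and -1.5 ± 0.39, adjusted p = 0.0235 and 0.0239); the adjusted p of Vegfa was 0.0925 and 0.0941 without 300 mM libraries 1 and 2 and 0.0522 and 0.0711 without no-LIF libraries 2 and 3, and that of Egln1 was 0.0648, 0.0834 and 0.0801 without 300 mM libraries 1, 2 and 3 and 0.0718 and 0.0634 without no-LIF libraries 2 and 3. Pfkfb4, the kinase that sets fructose-2,6-bisphosphate, went up (1.86 ± 0.45, adjusted p = 0.0142), with an adjusted p of 0.0663 without 300 mM library 2 and 0.065 without no-LIF library 1. Car12, a membrane carbonic anhydrase, had 0 counts at 300 mM and 56 without LIF, at least 18.2-fold lower against a floor of 3 counts over the group, with 16 counts with LIF alone. Ndufa4l2, a HIF target in mitochondria, was among the 12 largest falls (-3.44 ± 0.95, adjusted p = 0.0303) but lost the call when any 1 of 4 libraries was left out: its adjusted p was 0.1, 0.0792 and 0.097 without 300 mM libraries 1, 2 and 3 and 0.112 without no-LIF library 2, and its change was -2.82 without no-LIF library 2. No-LIF library 2, with the high ribosomal protein genes, was the highest of its group for Adm, Bnip3, Ero1l and Ddit4, and without it 5 of 19 hypoxia genes fell.

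Of 23 tested glycolytic genes 8 fell, 1 rose (Pfkfb4) and 14 did not pass, beside 5.15% of all tested genes that fell. In this list 20 changes were negative and the median was -0.81. Aldoc, an aldolase, had 34.3, 27 and 10.1 CPM at 300 mM and 121, 335 and 137 CPM without LIF (-3.01 ± 0.53, adjusted p = 0.00221). Slc16a3, which exports lactate, had 227, 129.7 and 118 CPM at 300 mM and 975, 731 and 502 CPM without LIF (-2.21 ± 0.44, adjusted p = 0.00462). In both genes every 300 mM library lay below every library without LIF and with LIF alone. Pfkfb3, the isoform whose kinase activity drives glycolytic flux, averaged 11.8 ± 3.01 and 54.6 ± 33.4 CPM (-2.15 ± 0.42, adjusted p = 0.00452). The lactate dehydrogenase subunit gene Ldhb averaged 91.6 ± 6.21 and 383 ± 111 CPM (-2.06 ± 0.34, adjusted p = 0.00173). Its partner Ldha, chosen after its values were seen, had 769, 651 and 652 CPM at 300 mM and 1686, 2754 and 1399 CPM without LIF (-1.49 ± 0.28, adjusted p = 0.00318). Aldoa (-1.59 ± 0.34), Gpi1 (-1.47 ± 0.31) and Tpi1 (-1.53 ± 0.41), outside the naming rule, completed the 8, and the adjusted p of Tpi1 was 0.0997, 0.0702 and 0.0636 without 300 mM libraries 1, 2 and 3 and 0.13 without no-LIF library 2. Hk2, the hexokinase at the entry of the pathway, averaged 340.3 ± 22.9 and 338 ± 122 CPM (adjusted p = 0.994). Without no-LIF library 2, 7 of 23 fell. Of 49 tested subunits of oxidative phosphorylation none passed the threshold in edgeR's quasi-likelihood test, 3 had an unadjusted p under 0.05, and their median was 0.02.

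**Figure D3:**
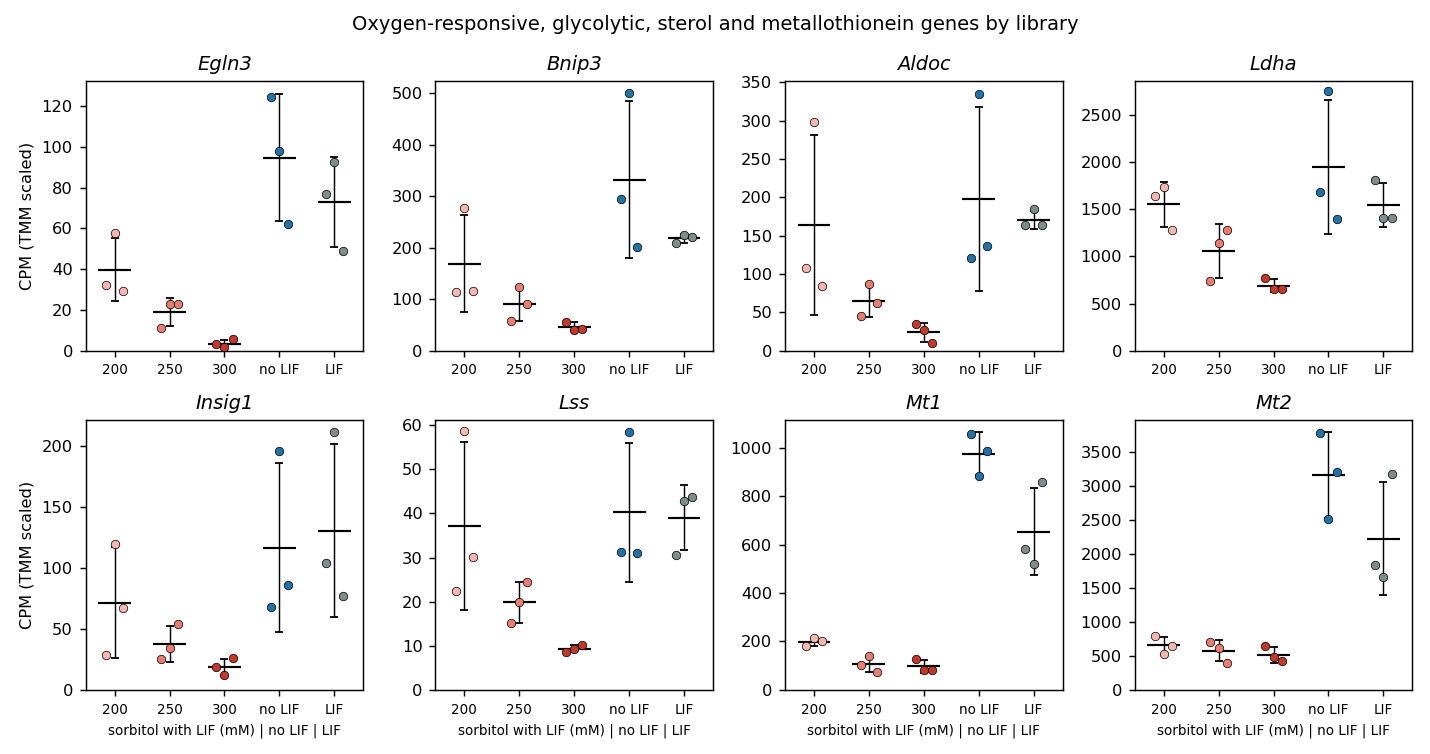
CPM of 8 genes that were lower at 300 mM sorbitol in each library (points), with the mean and SD of 3 libraries (lines), for sorbitol at 200, 250 and 300 mM with LIF, for no LIF and for LIF alone. At 300 mM all 3 libraries lie below those without LIF for each gene; the means of Egln3, Bnip3, Aldoc, Ldha, Insig1 and Lss fall with dose, while Mt1 and Mt2 are low at all doses.

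The sequence ACGTG, the core to which HIF binds, occurs on either strand in 19.7% of all 27025 promoters of that length. It was present in 5 of the 7 hypoxia genes that fell and in 12 of 17 tested ones with a listed promoter, and in 4 of 8 glycolytic genes that fell and 11 of 22 tested. The promoters of Egln3 (chr12:54203825-54204124, minus strand, 1 match) and Bnip3 (chr7:138909457-138909756, minus strand, where 2 matches on opposite strands overlap as CACGTG) are shown with the matches in capitals, since these genes had the clearest fall among hypoxia genes.
Egln3: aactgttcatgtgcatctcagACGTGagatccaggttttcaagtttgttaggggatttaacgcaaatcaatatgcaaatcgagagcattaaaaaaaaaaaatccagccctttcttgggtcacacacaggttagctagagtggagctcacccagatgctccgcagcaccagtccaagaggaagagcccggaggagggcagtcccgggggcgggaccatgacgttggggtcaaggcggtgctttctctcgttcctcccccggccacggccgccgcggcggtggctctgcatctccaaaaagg
Bnip3: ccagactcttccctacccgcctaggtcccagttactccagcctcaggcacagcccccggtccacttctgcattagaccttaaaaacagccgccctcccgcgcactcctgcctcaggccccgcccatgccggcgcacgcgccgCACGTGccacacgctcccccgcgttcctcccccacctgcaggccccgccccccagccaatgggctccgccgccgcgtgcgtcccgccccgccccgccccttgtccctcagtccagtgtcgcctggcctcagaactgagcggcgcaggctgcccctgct

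Sterol synthesis genes, which the SREBP factors drive when membranes lack cholesterol, were lower in part. Of 23 tested 9 fell, none rose and 14 did not pass, 21 changes were negative and the median was -0.82. Insig1, a feedback protein that SREBP induces, had 19, 12.6 and 25.8 CPM at 300 mM, 67.7, 196 and 85.9 CPM without LIF and 104, 211 and 76.7 CPM with LIF alone (-2.59 ± 0.55 against no LIF, adjusted p = 0.00742). All 300 mM libraries were below all libraries without LIF and with LIF alone. Lss, Dhcr7 and Sc5d, enzymes of the later steps from squalene epoxide to cholesterol, changed by -2.08 ± 0.40, -2.07 ± 0.39 and -1.87 ± 0.36 (adjusted p = 0.00405, 0.0035 and 0.00405). Fdps, Cyp51, Sc4mol and Stard4, outside the naming rule, fell as well, with changes of -1.42, -1.11, -1.47 and -1.64. Of these, Fdps had an adjusted p of 0.0517 without 300 mM library 1, Sc4mol of 0.0533 and 0.0538 without 300 mM libraries 2 and 3 and 0.0557 without no-LIF library 2 and Stard4 of 0.0649 and 0.0726 without 300 mM libraries 1 and 2 and 0.0613 without no-LIF library 2. Between no LIF and LIF alone the list's median was 0.03 and none was called, while 12 of 23 were lower at 300 mM than with LIF alone.

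In fatty acid synthesis and desaturation 4 of 17 tested genes fell and none rose, and all 4 encode desaturases. Scd1, which makes oleate, had 44.1, 39.6 and 34.1 CPM at 300 mM and 158, 269 and 115 CPM without LIF (-2.19 ± 0.39, adjusted p = 0.00242). Its groups were well apart. Scd2 (-1.69 ± 0.44, adjusted p = 0.0234, and 0.0926, 0.0684 and 0.06 without 300 mM libraries 1, 2 and 3 and 0.0941 without no-LIF library 2), Fads1 (-1.1 ± 0.26, adjusted p = 0.0128, and 0.0613 and 0.0557 without 300 mM libraries 2 and 3) and Fads2, chosen after its values were seen (-3.3 ± 0.75, adjusted p = 0.0107, and 0.0529 without no-LIF library 1), were the others. The sterol response sequence TCACNCCAC, found in 1.22% of all promoters on either strand, was in none of the 16 listed promoters of tested sterol genes, which says only that these letters are not in that window. Without 300 mM library 2, or without library 3, 2 of the 17 fatty acid genes fell.

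Both tested metallothioneins, small proteins that bind zinc and copper, fell, and they were the 2 called genes in a list of 4 tested metal-handling genes with a median of -1.35. Mt1 had 128, 80.9 and 83.8 CPM at 300 mM, 1057, 883 and 986 CPM without LIF and 581, 519.8 and 858 CPM with LIF alone (-3.32 ± 0.29 against no LIF, adjusted p = 1.65e-05). Mt2 had 649.5, 484 and 420.02 CPM at 300 mM, 3778, 2511 and 3206 CPM without LIF and 1844, 1657 and 3184 CPM with LIF alone (-2.61 ± 0.31, adjusted p = 0.000145). Neither gene's 300 mM libraries reached those of any group without sorbitol. Both remained past the threshold under all 15 alternative settings run, a test against a log2 change of 1 included. 

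Metal response elements, where the zinc sensor MTF1 binds, were searched as TGCACNC or TGCGCNC on both strands. At least 1 was present in 25.6% and at least 3 in 2.0% of all promoters. Mt1 (chr8:94178839-94179138, plus strand) held 3 and Mt2 (chr8:94172368-94172667, plus strand) held 4. They are shown because both genes moved together, with the matches in capitals, 2 of those in Mt2 lying on the other strand.
Mt1: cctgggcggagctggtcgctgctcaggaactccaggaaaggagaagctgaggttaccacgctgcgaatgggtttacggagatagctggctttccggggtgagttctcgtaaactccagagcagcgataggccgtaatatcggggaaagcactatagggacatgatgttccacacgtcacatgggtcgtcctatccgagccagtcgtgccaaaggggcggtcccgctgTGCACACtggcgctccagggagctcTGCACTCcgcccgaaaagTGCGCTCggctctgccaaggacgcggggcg
Mt2: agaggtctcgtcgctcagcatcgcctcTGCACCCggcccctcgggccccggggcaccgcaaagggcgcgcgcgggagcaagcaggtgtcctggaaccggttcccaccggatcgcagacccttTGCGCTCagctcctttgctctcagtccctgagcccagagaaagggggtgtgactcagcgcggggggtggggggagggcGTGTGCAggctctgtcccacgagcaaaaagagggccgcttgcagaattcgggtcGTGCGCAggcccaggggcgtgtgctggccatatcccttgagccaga

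In the list of antioxidant genes under NRF2, 3 of 20 tested fell and none rose, with 17 negative changes and a median of -0.58. The glutathione transferase gene Gsta3, given above, is not in this list and rose, with a log2 change of 3.69. Gstm1, a glutathione transferase, averaged 25.2 ± 6.42 CPM at 300 mM and 71.1 ± 19.6 CPM without LIF (-1.47 ± 0.31, adjusted p = 0.00642). Gclm, the modifier subunit of the enzyme that starts glutathione synthesis, averaged 69.2 ± 5.6 and 146 ± 12.1 CPM (-1.07 ± 0.30, adjusted p = 0.0309), with an adjusted p of 0.073, 0.112 and 0.0994 without 300 mM libraries 1, 2 and 3 and 0.0776 and 0.0742 without no-LIF libraries 1 and 2. Gpx2, a glutathione peroxidase, averaged 8.57 ± 4.96 and 28.3 ± 5.9 CPM (-1.66 ± 0.44, adjusted p = 0.0252), with an adjusted p of 0.0897 and 0.0973 without 300 mM libraries 2 and 3 and 0.0902 and 0.054 without no-LIF libraries 1 and 2. Among 18 tested genes of the unfolded protein and integrated stress responses, Ddit4, Ddit3 and Herpud1 fell and none rose. Ddit3 (CHOP), a stress-induced transcription factor, averaged 7.64 ± 2.35 CPM at 300 mM and 27.7 ± 13.2 CPM without LIF (-1.84 ± 0.54, adjusted p = 0.039), and its adjusted p was 0.14, 0.0749 and 0.103 without 300 mM libraries 1, 2 and 3 and 0.0529 and 0.147 without no-LIF libraries 1 and 2. Herpud1, of protein degradation at the endoplasmic reticulum, changed by -0.89 ± 0.23 (adjusted p = 0.022), with an adjusted p of 0.112 and 0.0854 without 300 mM libraries 2 and 3 and 0.0861 without no-LIF library 3. Without 300 mM library 2 only 1 gene of each of these lists fell, and likewise without 300 mM library 3; without no-LIF library 1 it was 1 antioxidant gene.

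Lysosome and autophagy genes held 4 that fell and none that rose among 19 tested, beside 5.15% of all tested genes that fell. The list's median was 0.02, with 10 positive changes. Lamp2, a protein of the lysosomal membrane, averaged 24.4 ± 4.21 CPM at 300 mM and 79.1 ± 15.3 CPM without LIF (-1.7 ± 0.34, adjusted p = 0.00489). Hexa, a lysosomal hexosaminidase subunit, averaged 42.7 ± 8.42 and 121 ± 8.34 CPM (-1.49 ± 0.24, adjusted p = 0.00134). Wipi1 (-2.46 ± 0.46, adjusted p = 0.0035) and Gabarapl1 (-1.46 ± 0.30, adjusted p = 0.00623), which take part in forming autophagosomes, fell as well. The LIF control lay close to the libraries without LIF for Hexa, at 120.1 ± 11.3 CPM.

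Genes of Nodal and BMP signalling changed in both directions. Cfc1 (Cryptic), a Nodal co-receptor and paralog of Tdgf1 among the 12 largest falls, had 0.544, 2.53 and 1.84 CPM at 300 mM, 82.4, 37 and 30.2 CPM without LIF and 45.4, 29.1 and 14.3 CPM with LIF alone (-5.01 ± 0.69 against no LIF, adjusted p = 0.000411, and a change of -4.4 without no-LIF library 1). The related co-receptors thus changed in opposite directions, Tdgf1 up and Cfc1 down. Of 14 tested Nodal pathway genes, Tdgf1 and the inhibitor Smad7 (1.1 ± 0.32, adjusted p = 0.0354) rose, and Cfc1 and the SMAD co-repressor Skil (-1.14 ± 0.32, adjusted p = 0.0334) fell. Smad7 had an adjusted p of 0.0962, 0.12 and 0.0531 without 300 mM libraries 1, 2 and 3 and 0.15 and 0.0994 without no-LIF libraries 1 and 2. Skil had 0.138, 0.0737 and 0.0658 without 300 mM libraries 1, 2 and 3 and 0.0537 and 0.147 without no-LIF libraries 1 and 3. Of 11 tested BMP and Id genes, the ligand gene Bmp4 rose, the ligand gene Bmp7 fell and 9 did not pass, with a median of 0.08. Bmp7 had 3.26, 2.53 and 0 CPM at 300 mM and 15.6, 39.4 and 24.7 CPM without LIF (-3.55 ± 0.64, adjusted p = 0.00272, and a change of -4.2 without 300 mM library 1). Bmp4 had 45.7, 49.7 and 61.7 CPM at 300 mM and 9.94, 5.97 and 16.7 CPM without LIF (2.23 ± 0.52, adjusted p = 0.0125, and 0.055 and 0.056 without no-LIF libraries 1 and 2). The groups overlapped for neither ligand.

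Among 13 tested feedback genes of FGF and ERK signalling, Spry2 and Etv4 rose and Ier3 fell. Spry2, an inhibitor of receptor tyrosine kinase signalling, had 159.9, 169 and 172 CPM at 300 mM and 34.6, 0 and 59.7 CPM without LIF (2.35 ± 0.62, adjusted p = 0.0244, a change of 3.07 without no-LIF library 3, and an adjusted p of 0.0521, 0.067 and 0.0578 without 300 mM libraries 1, 2 and 3 and 0.0697 without no-LIF library 1). Library 2 without LIF had no count of Spry2. Ier3, an immediate early gene, had 70.7, 35.4 and 43.3 CPM at 300 mM and 224, 599 and 149.6 CPM without LIF, with library 2 the highest (-2.68 ± 0.55, adjusted p = 0.00588, and a change of -1.92 without no-LIF library 2). Etv4, an ETS factor downstream of ERK, averaged 176 ± 82.1 CPM at 300 mM and 49 ± 19.99 CPM without LIF (1.83 ± 0.49, adjusted p = 0.026). Its adjusted p was 0.119 and 0.0539 without 300 mM libraries 1 and 2 and 0.0941 and 0.0856 without no-LIF libraries 2 and 3. Fos, an immediate early factor, had 2 counts at 300 mM and 28 without LIF, of which 23 were in library 2. Myc had 14 and 3 counts, a ratio of 4.78 (exact 95% interval 1.33 to 25.9, counting error only).

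Cell cycle genes changed little as a list. Of 30 tested genes of S phase and mitosis, Top2a and Cenpf fell and none rose, with a median of -0.15, a share near the 5.15% of all tested genes that fell. Top2a, the topoisomerase of dividing cells, had 579, 549 and 485 CPM at 300 mM and 1248, 1441 and 1092 CPM without LIF (-1.23 ± 0.21, adjusted p = 0.0018). Cenpf, a kinetochore protein, averaged 93.8 ± 13.6 and 205 ± 15.1 CPM (-1.13 ± 0.21, adjusted p = 0.00295). In both, the LIF control resembled the libraries without LIF, with 1279 ± 138 CPM for Top2a and 180.04 ± 12.3 CPM for Cenpf. Ccnd1 (cyclin D1), which drives entry into S phase, had 21.2, 32 and 30.4 CPM at 300 mM and 149, 81.2 and 126 CPM without LIF (-2.11 ± 0.35, adjusted p = 0.0018). Cdkn2a, which encodes cell cycle inhibitors, averaged 59.4 ± 6.95 and 209.6 ± 80.2 CPM (-1.81 ± 0.36, adjusted p = 0.0047). Neither overlapped between the groups.

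Genes of the cytoskeleton and of YAP targets held 4 that rose and 1 that fell among 19 tested, with a median of 0.18. S100a6, a calcium-binding protein, had 696, 479 and 483 CPM at 300 mM and 70.5, 159 and 219 CPM without LIF (1.9 ± 0.33, adjusted p = 0.00238). The intermediate filament gene Vim averaged 53.5 ± 21.4 CPM at 300 mM and 17.3 ± 6.47 CPM without LIF (1.62 ± 0.39, adjusted p = 0.0151, and 0.0535 and 0.0705 without 300 mM libraries 2 and 3 and 0.0726 and 0.0577 without no-LIF libraries 1 and 2). Lmna, of the nuclear lamina, changed by 1.1 ± 0.32 (adjusted p = 0.0388, and 0.142 and 0.135 without 300 mM libraries 1 and 2 and 0.104, 0.0782 and 0.0977 without no-LIF libraries 1, 2 and 3). Tpm2, a tropomyosin, changed by -1.07 ± 0.32 (adjusted p = 0.0463, and 0.0881, 0.156 and 0.121 without 300 mM libraries 1, 2 and 3 and 0.0617, 0.134 and 0.0724 without no-LIF libraries 1, 2 and 3). Anxa3, an annexin outside the naming rule, was the fourth that rose (2.06 ± 0.49, adjusted p = 0.0144, and 0.0613 without 300 mM library 1 and 0.0749 without no-LIF library 1). The list's counts were 2 higher and 1 lower without 300 mM library 1, 2 and 0 without 300 mM library 2 and likewise without no-LIF library 2, and 1 and 1 without no-LIF library 1.

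Smaller lists held single changes. Of 21 tested p53 targets and partners, Trp53 itself rose (1.06 ± 0.28, adjusted p = 0.0234) and the secreted stress factor Gdf15 fell (-1.0 ± 0.27, adjusted p = 0.0269), with a list median of -0.43. Both shares of this list are near the 4.5% of all tested genes that rose and the 5.15% that fell. The adjusted p of Trp53 was 0.121 and 0.08 without 300 mM libraries 2 and 3 and 0.0769, 0.0578 and 0.0551 without no-LIF libraries 1, 2 and 3. That of Gdf15 was 0.0837, 0.0806 and 0.0849 without 300 mM libraries 1, 2 and 3 and 0.081 without no-LIF library 1. Of 14 tested amino acid transporters, Slc7a3, which carries cationic amino acids, rose with Slc38a4 (1.31 ± 0.31, adjusted p = 0.0128, and 0.0592 without 300 mM library 2 and 0.0641 without no-LIF library 2). Among 3 tested carbonic anhydrases, the cytosolic Car2 rose (1.14 ± 0.24, adjusted p = 0.00742) and the membrane-bound Car4 fell (-1.8 ± 0.49, adjusted p = 0.028, and 0.0512, 0.0641 and 0.0977 without 300 mM libraries 1, 2 and 3 and 0.0903 and 0.0616 without no-LIF libraries 1 and 2).

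The remaining large falls were of varied function. Prkcb, a protein kinase C, had 2.72, 2.53 and 1.84 CPM at 300 mM and 29.8, 23.9 and 31 CPM without LIF (-3.51 ± 0.46, adjusted p = 0.000342). Pdzk1, a scaffold for membrane transporters, had 2.72, 4.21 and 2.76 CPM at 300 mM, 42.6, 39.4 and 27.9 CPM without LIF and 15.8, 12.7 and 18.7 CPM with LIF alone (-3.49 ± 0.41 against no LIF, adjusted p = 0.000145). For Pdzk1 the libraries with LIF alone formed a level of their own between the others. Pdlim4, a LIM domain protein of the actin skeleton, averaged 6.06 ± 5.15 CPM at 300 mM and 73.6 ± 40.3 CPM without LIF (-3.49 ± 0.54, adjusted p = 0.0011, and a change of -4.55 without 300 mM library 1). Tmprss13, a membrane serine protease, averaged 4.08 ± 0.352 and 39.6 ± 25.7 CPM (-3.27 ± 0.68, adjusted p = 0.00642, and a change of -2.57 without no-LIF library 1). The meiotic genes Sycp3, of the synaptonemal complex (-3.23 ± 0.56, adjusted p = 0.00204, and a change of -3.95 without 300 mM library 3), and Rec8, a meiotic cohesin (-1.9 ± 0.33, adjusted p = 0.00204), were the 2 of 7 tested germline genes past the threshold.

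**Figure D4:**
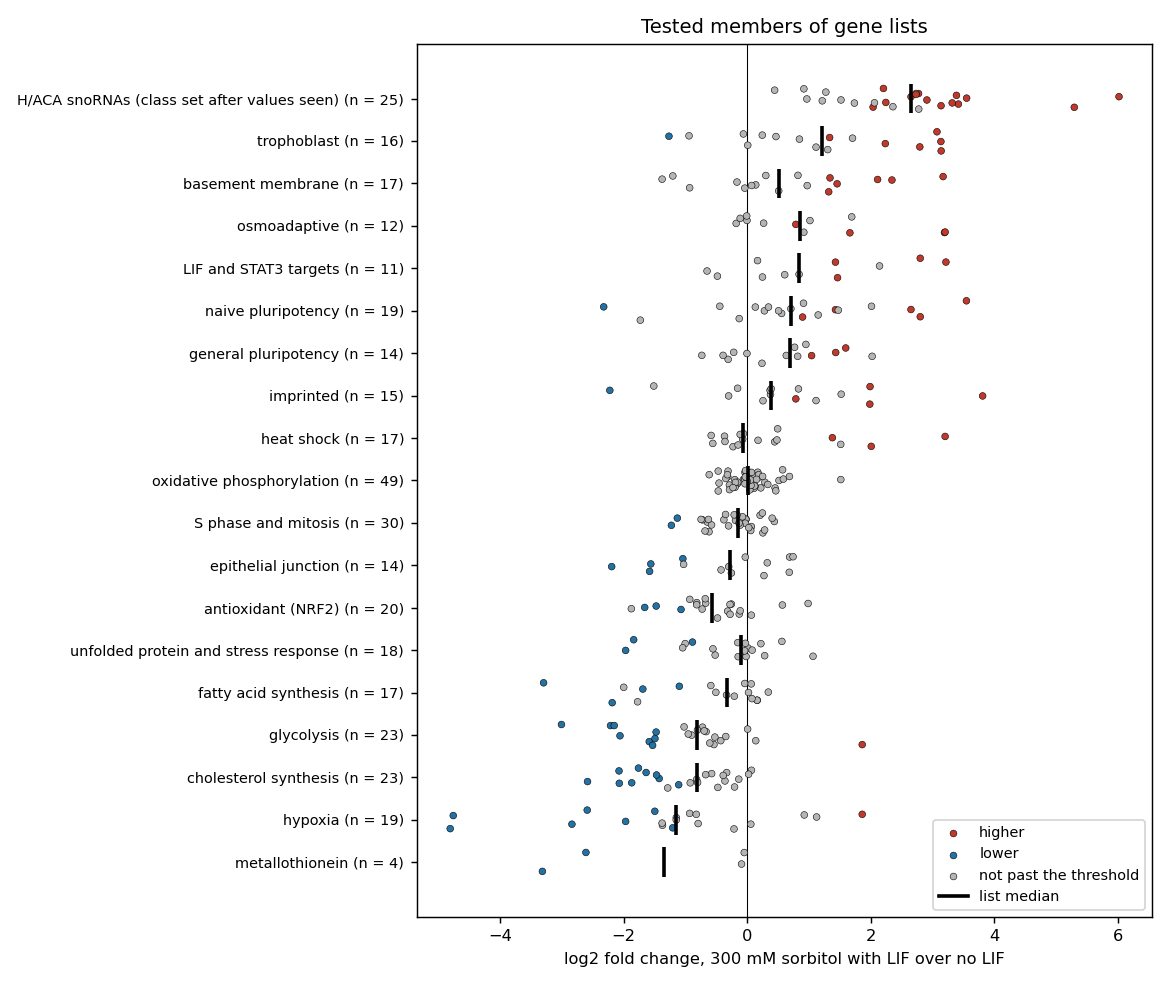
Each point is a tested member of the gene list named at the left, with its number of tested members; the x axis is the log2 change of 300 mM sorbitol with LIF over no LIF, red points rose, blue points fell and black bars are list medians. Among the lists drawn, medians run from 2.65 for H/ACA small nucleolar RNAs, a class set with its values in view, to -1.35 for the 4 tested metallothionein list genes.

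Small nucleolar RNAs (snoRNAs) guide chemical changes of ribosomal and other RNAs: the H/ACA class guides pseudouridylation and the C/D class 2'-O-methylation. Most are cut from introns of host genes. Snora47 and Snora41 were among the 12 largest rises, and the classes were set up after that was seen, so their counts describe and do not test. The filter on low counts used all 15 libraries, so snoRNAs low without LIF could be tested through their sorbitol counts. Without that filter 21 of 92 snoRNAs of both classes rose, with a median of 1.67, against 15 of 32 and 2.23 with it. Of 25 tested H/ACA snoRNAs 14 rose and none fell, all 25 changes were positive (range 0.44 to 6.02) and the median was 2.65. Of 7 tested C/D snoRNAs 1 rose and none fell, 4 changes were positive and the median was 1.16. The C/D snoRNA that rose was Snord55 (1.82 ± 0.49, adjusted p = 0.027, and 0.131 and 0.0567 without 300 mM libraries 1 and 2 and 0.125 and 0.084 without no-LIF libraries 1 and 2). The library protocol primes on poly(A), which mature snoRNAs mostly lack, so which form of these RNAs was counted is not known, and reads of an overlapping host intron cannot be told apart from theirs.

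Snora3, which lies in the ribosomal protein gene Rpl27a (chr7:109520120-109520251, plus strand), Snora30 (chr7:127527874-127528003, plus strand) and Snora41, in Eef1b2 (chr1:63179004-63179135, plus strand), are shown as examples of H/ACA snoRNAs that rose at high counts. Their sequences come from the GENCODE M21 annotation of GRCm38, with the ACA box in capitals, which stood 3 bases from the 3' end in 20 of the 25 H/ACA snoRNAs. Snord104 (chr11:106500993-106501062, plus strand) is shown as a C/D snoRNA of similar level that did not pass, with its D box CTGA in capitals.
Snora3: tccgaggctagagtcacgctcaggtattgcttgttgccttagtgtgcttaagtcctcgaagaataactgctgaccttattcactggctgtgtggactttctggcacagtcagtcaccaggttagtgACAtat
Snora30: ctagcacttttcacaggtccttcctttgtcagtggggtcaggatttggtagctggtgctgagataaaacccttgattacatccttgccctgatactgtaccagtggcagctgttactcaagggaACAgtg
Snora41: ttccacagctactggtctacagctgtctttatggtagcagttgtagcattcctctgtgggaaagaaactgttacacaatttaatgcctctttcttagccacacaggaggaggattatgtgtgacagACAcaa
Snord104: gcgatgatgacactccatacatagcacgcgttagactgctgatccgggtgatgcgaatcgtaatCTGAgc

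Snora3 had 269, 131 and 111 CPM at 300 mM, 10.4, 17.9 and 31 CPM without LIF and 64, 20.9 and 34.8 CPM with LIF alone (3.14 ± 0.47 against no LIF, adjusted p = 0.000788). Snora30 had 139, 110.4 and 67.2 CPM at 300 mM and 8.05, 16.7 and 23.1 CPM without LIF (2.77 ± 0.43, adjusted p = 0.00111). Snora41 had 106, 61.5 and 61.7 CPM at 300 mM and 2.37, 1.19 and 15.9 CPM without LIF (3.55 ± 0.55, adjusted p = 0.00111, and a change of 5.22 without no-LIF library 3). In all 3 the groups were far apart, and 300 mM library 1 was the highest. Snora44 and Snora75, chosen after their values were seen, rose by 2.91 ± 0.53 and 2.21 ± 0.43 (adjusted p = 0.00296 and 0.00405). Snora47 had 96 counts over the libraries at 300 mM and 1 without LIF, a ratio of 98.2 scaled to library totals (exact 95% interval 17.2 to 3920, counting error only; adjusted p = 0.000816). Its fitted change of 6.02 ± 0.90 was 5.29 without 300 mM library 1, 5.24 without no-LIF library 1 and 7.93 without no-LIF library 3. Snord104 had 60.9, 50.5 and 44.2 CPM at 300 mM and 60.6, 65.7 and 61.3 CPM without LIF, within 1 narrow range (-0.26 ± 0.27, adjusted p = 0.613).

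Summed over the 25 H/ACA snoRNAs, the level was 1600, 845 and 761 CPM at 300 mM, against 125, 338 and 348 CPM without LIF and 539, 350 and 429 CPM with LIF alone. The sorbitol libraries at 200 mM had 813, 1322 and 1300 CPM and those at 250 mM had 1089, 1120 and 1145 CPM, so no sorbitol library overlapped a library without sorbitol. The 7 C/D snoRNAs summed to 190, 139 and 105 CPM at 300 mM, 137, 211 and 150 CPM without LIF and 328, 220 and 128 CPM with LIF alone, which overlapped. For the 19 H/ACA snoRNAs with a tested host gene, 0 hosts rose and 1 fell (Ipo7, which holds Snora23). The median host change was -0.32 (range -1.63 to 0.41), with Snhg12 entered for each of Snora16a, Snora44 and Snora61. A relation between the changes of snoRNAs and hosts was not tested. Rpl27a, the host of Snora3, changed by 0.41 ± 0.20 (adjusted p = 0.212), and Eef1b2, the host of Snora41, by -0.32 ± 0.22 (adjusted p = 0.398). Without the deeper replicate 1 of every group, 5 of 32 tested snoRNAs of both classes rose, against 15 with all libraries. Counts of 11 rose without 300 mM library 1, and likewise 11 without no-LIF library 1.

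**Figure D5:**
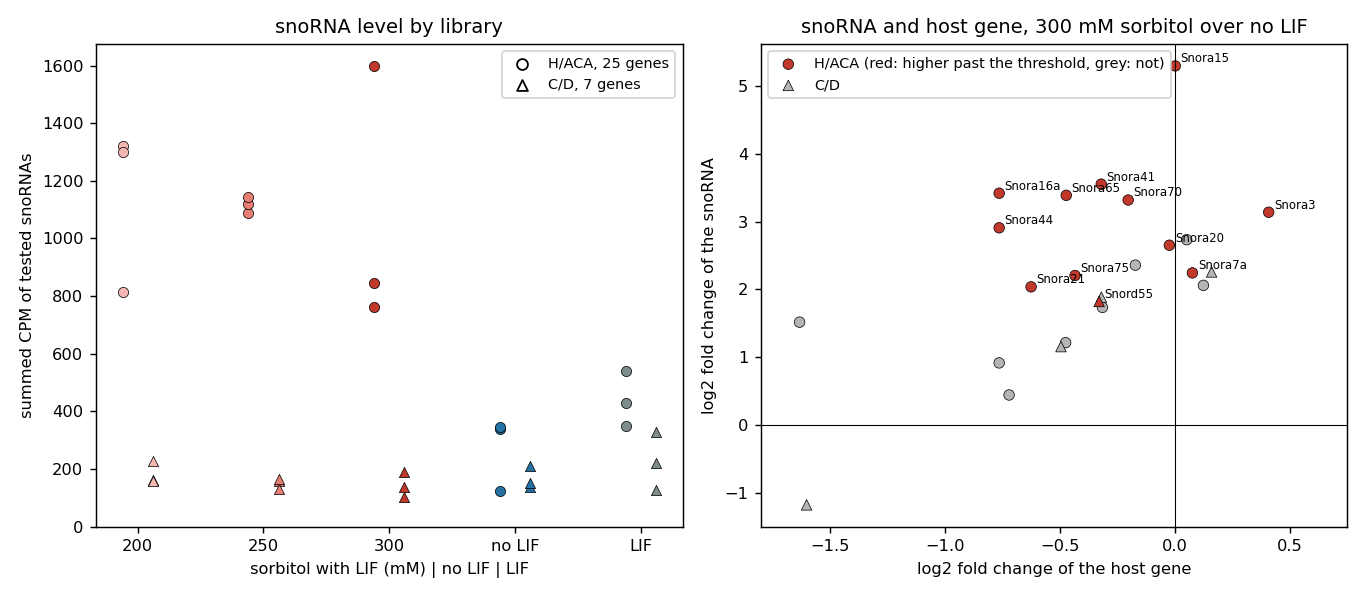
The left panel gives the summed CPM of the 25 tested H/ACA (circles) and 7 tested C/D (triangles) snoRNAs in each library, by group. The right panel sets the log2 change of each snoRNA with a tested host gene (y axis) against that of the host (x axis), for 300 mM sorbitol over no LIF. Points past the threshold are red and named. Of the 14 H/ACA snoRNAs that rose, 11 had a tested host and are drawn. H/ACA sums are 761 CPM or more in all sorbitol libraries and 539 CPM or less in all others, and no host gene of a red point rose.

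At lower sorbitol doses fewer genes differed from no LIF. At 200 mM 118 genes rose (1.26%) and 63 fell (0.671%), at 250 mM 270 rose (2.88%) and 281 fell (2.99%), and at 300 mM the counts were 423 and 484. Scaling by library totals turned the split at 250 mM to 338 higher and 190 lower. Leaving out 1 library gave 206, 245 and 257 genes at 250 mM without its libraries 1, 2 and 3, and 304, 348 and 434 without no-LIF libraries 1, 2 and 3, against 551. At 200 mM it gave 104, 168 and 113 without its libraries and 97, 103 and 111 without those of no LIF, against 181. The doses share the same libraries without LIF, so their values are set side by side.

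Klf4 and Tbx3 were above no LIF at every sorbitol dose, all of which were given with LIF. Klf4 changed against no LIF by 3.6 at 200 mM, 2.95 at 250 mM and 2.8 at 300 mM, and Tbx3 by 3.32, 3.26 and 3.55, all past the threshold. Mt1 changed by -2.29, -3.2 and -3.32, also past the threshold at each dose. Egln3 averaged 39.8 ± 15.5 CPM at 200 mM, 19 ± 6.93 CPM at 250 mM and 3.49 ± 1.93 CPM at 300 mM, and its change against no LIF was -1.27 ± 0.37 (adjusted p = 0.105), -2.34 ± 0.40 (adjusted p = 0.00257) and -4.76 ± 0.49 (adjusted p = 3.36e-05) at these doses. Insig1 averaged 71.5 ± 45.6, 37.7 ± 14.7 and 19.2 ± 6.58 CPM with rising dose, and Aldoc 163 ± 117, 64.9 ± 20.6 and 23.8 ± 12.4 CPM. The list medians against no LIF, with rising dose, were -0.55, -0.81 and -1.15 for hypoxia, -0.33, -0.49 and -0.81 for glycolysis, and -0.16, -0.57 and -0.82 for sterol synthesis. Hspb1 averaged 429.6 ± 97.8, 661 ± 65.3 and 714 ± 58.8 CPM at the 3 doses, and Igf2 49.4 ± 12, 119.9 ± 34 and 82.7 ± 11.6 CPM, highest at 250 mM. Plac1 was also highest at 250 mM, with 11.2 ± 5.62, 32.6 ± 7.96 and 14.1 ± 2.91 CPM.

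Several genes with near-identical copies passed the threshold. Rpl10l (2.3 ± 0.31, adjusted p = 0.000378), Rpl39l (1.38 ± 0.27, adjusted p = 0.00429) and Rps6 (0.97 ± 0.30, adjusted p = 0.0482, and 0.0822, 0.0818 and 0.166 without 300 mM libraries 1, 2 and 3 and 0.164 and 0.132 without no-LIF libraries 1 and 3) rose, but their counts are uncertain because paralogs or pseudogenes could share their reads. The ribosomal protein genes as a list had a median of -0.29, and 66 of 76 negative changes, with no-LIF library 2 the high one. The histone gene Hist1h2bc (2.56 ± 0.36, adjusted p = 0.000496) is open to the same doubt. Of 12 tested histone genes it was the 1 that rose, while 9 changes were negative and the median was -0.41. Hist1h2bk, outside the naming rule, fell, with an adjusted p of 0.151 and 0.152 without 300 mM libraries 1 and 2 and 0.063 and 0.16 without no-LIF libraries 1 and 2. Of 105 genes named by the rule and past the threshold, 76 remained past it without any 1 of the 6 libraries and 29 were lost in at least 1 case.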

How the data were processed

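The deposited table holds raw counts per gene for 15 libraries, which the authors made from 3' RNA sequencing reads of Trizol-extracted RNA. The submitters' processing notes name CASAVA 1.8.2, STAR, HTSeq, edgeR and the build mm9; the strand setting is not given in the sources used here. Genes were filtered with filterByExpr (minimum count 10, minimum total 15), scaled by TMM and tested with edgeR 4.0.16's quasi-likelihood test on all 15 libraries in R 4.3.3, adjusting p by Benjamini-Hochberg over the 9390 genes left. The code was tested on simulated data. CPM values use no prior count; log2 levels that place the LIF control use a prior count of 2.

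The rule named 10 genes of interest, the 12 largest rises and 12 largest falls among called genes with 20 CPM or more in the higher group and no overlap, and up to 4 called members of each list by the same level. The comparison and lists were chosen with earlier results of these data known. Same-numbered libraries at 300 mM and without LIF had correlations of their deviations of 0.41, 0.063 and 0.22, so the numbers were not taken as pairs. Alternatives covered DESeq2 1.42.0, scaling, filters, a replicate block, a fold threshold and leaving out libraries. Intervals and floors cover counting error only. Promoters came from RefSeq (GRCm38.p6) and snoRNAs from GENCODE M21. Depths are given with the results. Results for a few genes are not reported here.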

Additional observations from a re-analysis of the deposited data

How the results depend on the processing

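The 907 genes called between 300 mM sorbitol and no LIF became 361 when replicate 1 of every group was dropped, which was chosen after seeing the data, and 102 when tested against a log2 change of 1 with glmTreat. Leaving out 1 library gave 461 to 839 genes there, 206 to 434 for 250 mM against no LIF, 97 to 168 for 200 mM against no LIF, 210 to 1500 for 300 mM against LIF alone and 0 to 74 for no LIF against LIF alone. With fewer libraries the fit has fewer degrees of freedom; the cause of the rise without LIF control library 3 was not tested. DESeq2 gave 1169 genes for 300 mM against no LIF, 299 for 200 mM against no LIF and 26 for no LIF against LIF alone. Without a filter on low counts there were 836 genes for 250 mM against no LIF, 342 for 200 mM and 37 for no LIF against LIF alone; the cause was not tested. With the replicate number as a block (replicate block) there were 1863 genes for 300 mM against no LIF, 1419 for 250 mM, 512 for 200 mM, 1869 for 300 mM against LIF alone and 40 for no LIF against LIF alone. Libraries 1 and 3 correlated best with their own number and library 2 at 300 mM did not, so the libraries share a number without a shown pairing. Socs3 and Zfp42, which did not pass, had an adjusted p of 0.0338 and 0.0295 with the block. Of the 105 named genes past the threshold, 105 kept the call with the block, 104 with DESeq2 and 100 with library totals, and none reversed in any alternative run. Scaling by library totals moved the median log2 change by 0.09. Genes under about 3 counts in a library could not be resolved at this depth, and 9390 of 21516 listed genes were tested.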
